A study of Drosophila melanogaster
Gallus gallus with 8 samples.

Results

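The DRIP-seq peaks described here lay on sequences of the chicken assembly Galgal5 that have not been placed on a chromosome, in *primpol* and wild type DT40 cells. They were all peaks whose sequence name was not a plain number, Z or W. The rule took 1115 of 48468 peaks in the *primpol* list and 911 of 41445 peaks in the wild type list. No peak value was used to choose them.

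DNA:RNA hybrids were recovered with the S9.6 antibody from DT40, a chicken B-cell line, either PrimPol deficient (*primpol*) or wild type, both mixed with *Drosophila* S2 cells. The labels give 3.75 DT40 cells to 1 S2 cell, and the study's methods state a different ratio. Each genotype had 2 DRIP libraries, 1 input library and 1 DRIP library treated with RNase H. The authors called 1 peak list per genotype, from 44735404 DRIP and 30302032 input tags in *primpol* and from 46425192 DRIP and 23107894 input tags in wild type. The labels do not say how many clones the *primpol* cells came from, and with 1 list per genotype no difference between genotypes could be set against the spread between replicates.

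R-loops are DNA:RNA hybrids with a displaced DNA strand. They form behind RNA polymerase and are favoured by sequences that fold into secondary structures. PrimPol, a primase with polymerase activity, lets DNA synthesis start again beyond a block. Unplaced sequences are pieces of the genome that the assembly could not assign to a chromosome. They are often short and often lie between repeats that cannot be assembled. In birds, the smallest chromosomes are among the regions that assemblies have represented least well. The sequence and gene content of these pieces were not analysed here, and no sequence is shown.

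Unplaced peaks were few but held most of the highest fold enrichments of both lists. They made up 2.30% of the *primpol* peaks and 2.198% of the wild type peaks. Among the 100 peaks with the highest fold enrichment, which is the height of a peak over its local background, 93 were unplaced in *primpol* and 88 in wild type. The caller's −log10 q-value reached 5 in 36.1% of unplaced against 0.279% of placed peaks in *primpol*, and in 27.0% against 0.232% in wild type. Their local background was low, at 0.478 of the median of the *primpol* list and 0.541 of the median of the wild type list, and their heights were not lower in proportion. These features were found in both genotypes.

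The unplaced peaks covered 0.898 Mb in *primpol*, or 1.37% of all covered bases, and 0.731 Mb in wild type, or 1.38%. The ratio of their shares of the lists, *primpol* over wild type, was 1.05 with a 95% interval of 0.960 to 1.14. This and all other intervals given here are 95% intervals. They count each peak as independent and leave out everything but counting error. The ratio was 1.66 when *primpol* peaks were read at the depth of the wild type input, which kept 98.0% of the unplaced *primpol* peaks but 61.9% of the whole list. This step only removes *primpol* peaks and left 29985, against 41445 in wild type. The lists were therefore not matched in length, and 1.66 cannot be read as an excess in *primpol* corrected for depth. Among the 20000 peaks of each list with the highest −log10 q-values the ratio was 1.21. In the lists as deposited, the share on unplaced sequences did not differ between genotypes beyond counting error.

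Most of these peaks lay on contigs, whose names begin with AADN. The contigs carried 993 *primpol* peaks on 744 sequences, and 793 wild type peaks on 621 sequences. The scaffolds with names beginning with KQ carried 117 *primpol* peaks on 48 sequences and 118 wild type peaks on 54 sequences. The linkage group LGE64, a stretch known from genetic mapping but not tied to a chromosome, carried 5 *primpol* peaks and 0 wild type peaks. No peak in either list was on the mitochondrial genome. Peaks on scaffolds were wider than those on contigs, with medians of 636 against 449 bp in *primpol* and 620.5 against 460 bp in wild type. Their median fold enrichment was lower than on contigs, at 3.15 against 3.77 in *primpol* and 3.46 against 3.95 in wild type.

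A single peak per sequence was the usual case. In *primpol* 599 of 793 sequences (75.5%) held 1 peak, 121 held 2 peaks and 73 held 3 or more. In wild type 527 of 675 sequences (78.1%) held 1 peak, 106 held 2 peaks and 42 held 3 or more. The most on a sequence was 12 in *primpol* and 10 in wild type. Over both lists 913 sequences held a peak, and the median of the bases covered per sequence was 633 bp. The last peak ended less than 10 kb from the sequence start on 727 of them (79.6%), and the median position of that end was 4696 bp. A peak began within 200 bp of the start of its sequence in 90 *primpol* cases (8.07%) and 80 wild type cases (8.78%), compared with 1 placed peak in each list. Of these, 9 *primpol* and 5 wild type peaks began at the first base. The unplaced peaks lay on 793 sequences in *primpol* and 675 in wild type, each with its own start. The placed peaks lay on 32 and 33 chromosomes in the same order of lists, so these shares are not comparable between the parts.

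The bases covered were spread thinly over the sequences. Peaks of both lists joined together covered 1046 kb, of which the 10 sequences with most covered bases held 120.5 kb, or 11.5%, and the first of them 2.85%. The joined peaks covered more than 5 kb on 16 sequences.

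The sequence with most covered bases was the scaffold KQ759527.1. Its 12 *primpol* peaks covered 29755 bp and its 10 wild type peaks covered 24921 bp. Overlap with a peak of the other list was found for 9 of the 12 *primpol* peaks and for all 10 wild type peaks. They lay in a group over the first 48 kb of the scaffold and a second group beyond 121 kb, with no peak of either list between. Heights, the mean fragment pileup within a peak, are on the scale of each genotype's input library and are set side by side for single peaks with no ratio between genotypes. The widest unplaced peak of each list was on this scaffold. It was at 28994 to 41707 in *primpol*, 12714 bp wide, with a height of 38.2 and a fold enrichment of 5.94. In wild type it was at 29938 to 41595, 11658 bp wide, with a height of 21.6 and a fold enrichment of 5.02. These peaks ranked 12 by width among all *primpol* peaks and 15 among all wild type peaks. At the start of the scaffold a *primpol* peak at 93 to 10616 spanned a pair of wild type peaks at 121 to 6452 and 8078 to 10550. The highest peak of the scaffold, at 24707 to 25515, measured 63.0 in *primpol*, and its wild type partner at 24767 to 25479 measured 35.1. The *primpol* peaks with no partner, at 19841 to 20197, 121137 to 121417 and 131423 to 132100, had heights of 10.8, 14.7 and 10.2, within the lowest 16% of that list.

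**Figure D1:**
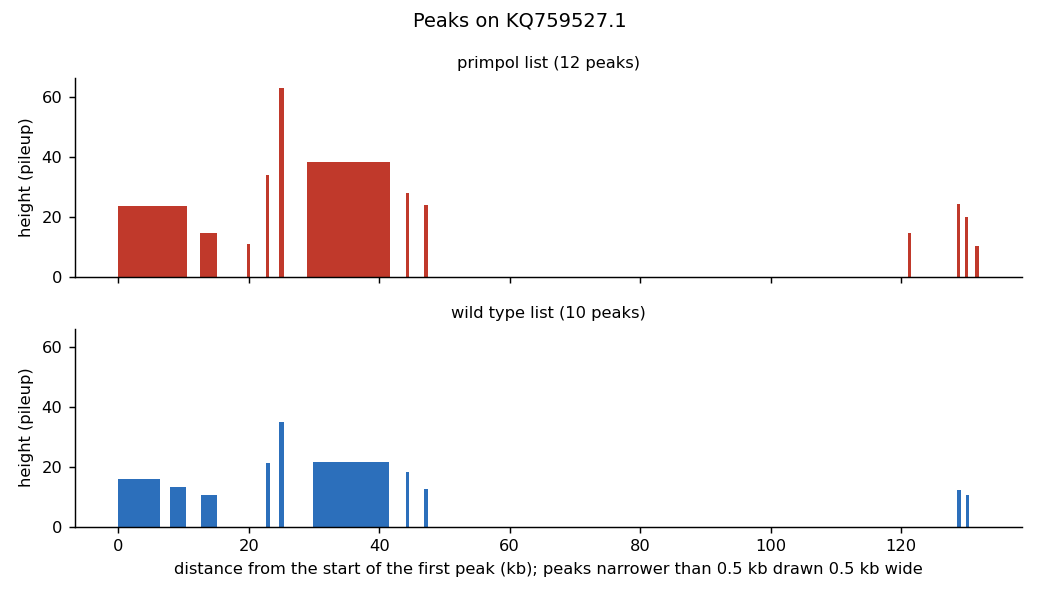
Peaks on the unplaced scaffold KQ759527.1, *primpol* list above and wild type list below. The horizontal axis is the distance from the start of the first peak in kb, the vertical axis is peak height (mean fragment pileup on the scale of each genotype's own input), and each bar is a peak. Of the 12 *primpol* peaks 3 have no wild type counterpart, and all 10 wild type peaks have a *primpol* counterpart.

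The contig AADN04000864.1 came next. It held 4 *primpol* peaks over 13343 bp and 3 wild type peaks over 11479 bp. Most of this was 1 broad region, 4480 to 14322 in *primpol* (height 24.8) and 4475 to 14248 in wild type (height 15.8). On KQ759392.1, 7 *primpol* peaks covered 9027 bp and 5 wild type peaks covered 9585 bp. On AADN04000710.1 both lists had 10 peaks, which covered 7227 bp in *primpol* and 8253 bp in wild type. None of these 20 peaks reached the median fold enrichment of unplaced peaks, with values of at most 3.13 in *primpol* and 3.11 in wild type. The scaffold KQ759486.1 held 7 *primpol* peaks over 10223 bp and 8 wild type peaks over 7146 bp, all with a partner. On KQ759539.1, 5 *primpol* peaks covered 9494 bp and 6 wild type peaks covered 8750 bp.

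The other 4 of the first 10 sequences had between 3 and 7 peaks in each list. AADN04000631.1 held 3 peaks in each, over 8473 bp in *primpol* and 8291 bp in wild type, and their local background was close to the list medians. The largest excess of wild type bases was on AADN04000732.1, where 6 *primpol* peaks covered 3218 bp and 7 wild type peaks covered 7307 bp. AADN04005785.1 held the highest peaks of these 4 sequences. Its 3 *primpol* peaks covered 7774 bp and reached a height of 51.7, and its 3 wild type peaks covered 8077 bp and reached 33.4. On AADN04001416.1, 4 *primpol* peaks covered 7349 bp and 5 wild type peaks covered 7156 bp. Covered bases were higher in *primpol* on 6 of the 10 sequences and in wild type on 4.

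**Figure D2:**
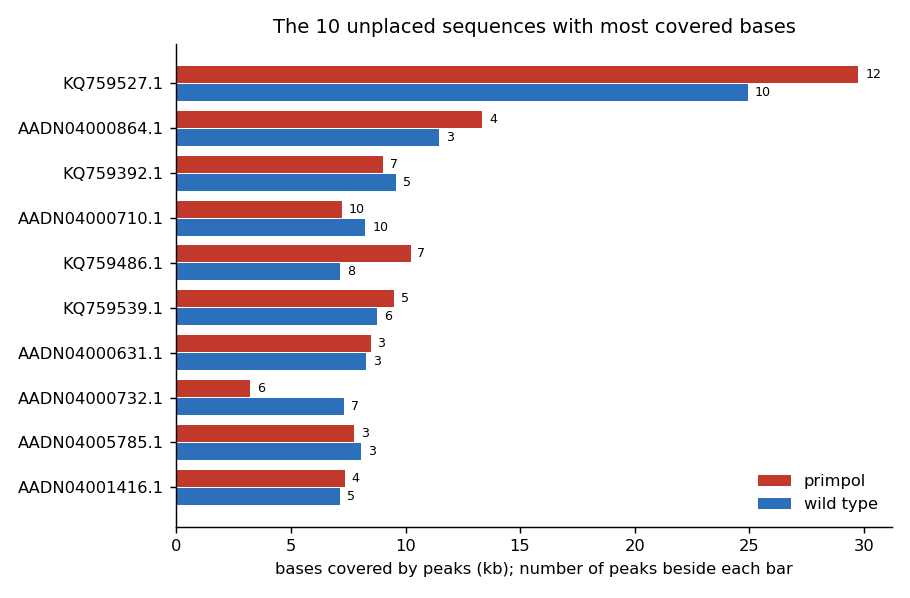
Bases covered by peaks (kb, horizontal axis) on the 10 unplaced sequences with most covered bases, *primpol* above wild type for each sequence, with the number of peaks beside each bar. KQ759527.1 has the longest bar in both lists, and AADN04000732.1 has the shortest *primpol* bar, 3218 bp against 7307 bp in wild type.

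Unplaced peaks were narrow. Their median width was 480 bp in *primpol* (interval 420 to 525), against 838 bp for placed peaks. In wild type it was 473 bp (interval 436 to 520), against 797 bp for placed peaks. Peaks on chromosomes 16 to 33, the small chromosomes, lay between, at 697 bp in *primpol* and 677.5 bp in wild type. The interquartile range of unplaced widths was 285 to 988.5 bp in *primpol* and 280 to 1015 bp in wild type. Peaks of 5 kb or more numbered 5 in *primpol* and 4 in wild type.

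Heights of unplaced peaks were drawn towards both ends of the list. The median height was 16.5 in *primpol* (interval 16.1 to 17.0), against 17.7 for placed peaks. In wild type the medians were 13.8 (interval 13.5 to 14.2) and 13.9, so that no difference between unplaced and placed peaks was detectable there. Lists were divided by height into 10 groups of equal size. The lowest group held 28.0% of the unplaced *primpol* peaks, and the highest group held 19.2%. In wild type the lowest group held 21.0% of the unplaced peaks and the highest 20.4%. Between these, each group from the 3rd to the 9th held under 10% of them in both lists. Of the 100 highest peaks, 48 were unplaced in *primpol* and 35 in wild type.

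**Figure D3:**
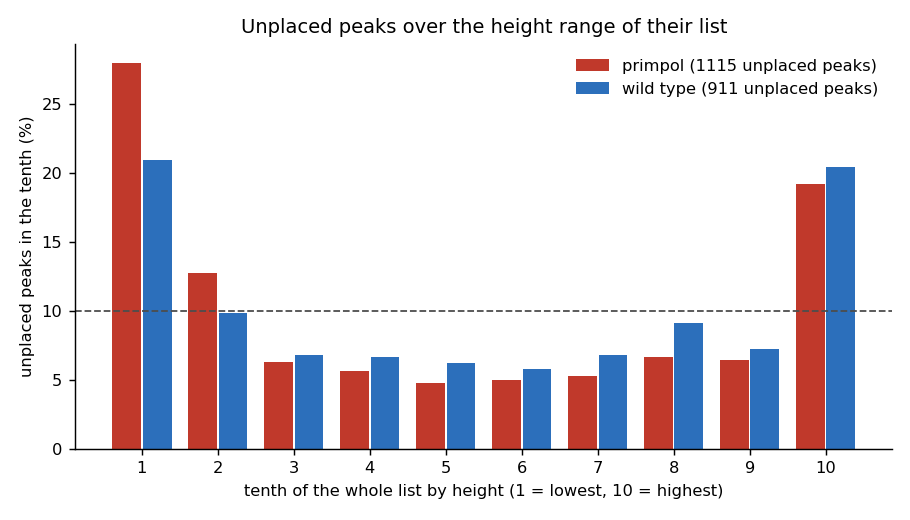
Share of the unplaced peaks (%, vertical axis) in each of 10 equal groups of the whole list by height (horizontal axis, 1 lowest to 10 highest), *primpol* bars left of wild type bars. The dashed line is the 10% that an even spread would give. The lowest group (28.0% in *primpol*, 21.0% in wild type) and the highest group (19.2% and 20.4% in the same order) stand above it.

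The highest unplaced peaks were found in both lists. The highest of the *primpol* list, on AADN04001412.1 at 3223 to 3753, reached 65.4. The height of its wild type partner at 3229 to 3725 was 44.7, and these peaks ranked 3 among all *primpol* peaks and 5 among all wild type peaks. The highest unplaced peak of the wild type list was on AADN04004853.1. Its *primpol* form spanned 11915 to 14070 (height 62.9) and its wild type form 11917 to 14074 (height 47.6). The peak on AADN04015921.1, at 1977 to 2722 in *primpol* and 1986 to 2726 in wild type, had heights of 54.1 and 43.9 in that order. The remaining peaks among the 5 highest were the one on KQ759527.1 given above, with a *primpol* peak on AADN04001967.1 (height 59.0, and 36.4 for its wild type partner) and wild type peaks on AADN04017216.1 (37.7, and 50.3 for its *primpol* partner) and AADN04008087.1 (36.8, and 43.5 for its *primpol* partner). Each of these peaks overlapped exactly 1 peak of the other list. The peak on AADN04017216.1 began at the first base of the contig in both lists.

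Local background was low at most unplaced peaks. Lambda, the input coverage that the caller takes as the local background of a peak, had a median of 3.35 at unplaced against 7.05 at placed peaks in *primpol*. In wild type it was 2.58 at unplaced and 4.80 at placed peaks. Divided by the median of the list, this gave a relative lambda of 0.478 (interval 0.463 to 0.490) against 1.01 in *primpol* and 0.541 (interval 0.530 to 0.553) against 1.01 in wild type. Lambda cannot fall below a genome-wide value that the caller computes from input tags, fragment length and a set effective genome size of 1870 Mb. This floor was 3.03 in *primpol* and 2.26 in wild type, and it is not a measured average of input coverage. Lambda was within 1% of that floor at 421 unplaced *primpol* peaks (37.8%), against 0.758% of placed peaks. In wild type it was at the floor at 282 unplaced peaks (31.0%), against 0.733% of placed peaks. Of the parts compared, chromosome Z was most like the unplaced sequences in this respect. Its median relative lambda was 0.494 in *primpol* and 0.522 in wild type, and 12.3% of its *primpol* peaks and 19.8% of its wild type peaks were at the floor. The caller averaged input coverage over windows of 1 and 10 kb. Many unplaced sequences had no peak beyond 10 kb, their lengths were not used here, and the part of sequence length in the low lambda was not tested. Reads with more than one match had been discarded before peak calling, and the part of that step was not tested either.

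A minority of unplaced peaks lay in high background. Relative lambda was above 1 at 78 *primpol* peaks (7.00%) and 66 wild type peaks (7.24%). The peak on AADN04015921.1 had the highest lambda of both whole lists, at 2.95 times the median in *primpol* and 3.02 times in wild type. Its fold enrichment, 2.54 in *primpol* and 2.92 in wild type, was below the unplaced medians of 3.71 and 3.89 in the same order of lists, and above the medians of all peaks, 2.30 and 2.55. By height it ranked 9 among all *primpol* peaks and 6 among all wild type peaks. The next highest in *primpol* were on AADN04005467.1 (2.33 times the median, and 1.30 in its wild type partner) and AADN04008087.1 (2.23 times, and 2.19 in its wild type partner). In wild type they were on AADN04004853.1 (2.201 times the median, and 1.72 in its *primpol* partner) and AADN04008087.1.

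Fold enrichment was higher at unplaced peaks than in each of the other parts compared. The median was 3.71 in *primpol* (interval 3.64 to 3.797), against 2.29 at placed peaks, 2.27 on chromosomes 16 to 33 and 2.68 on chromosome Z. In wild type it was 3.89 (interval 3.7995 to 3.96), against 2.55 at placed peaks, 2.53 on chromosomes 16 to 33 and 2.98 on chromosome Z. Within its own list the median unplaced peak stood at the 98.7th percentile of fold enrichment in *primpol* and at the 98.6th in wild type. The −log10 q-value had a median of 3.73 at unplaced against 1.56 at placed peaks in *primpol*, and of 3.26 against 1.504 in wild type.

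Few peaks in the lists as a whole reached a −log10 q-value of 5, 1.10% of all *primpol* peaks and 0.820% of all wild type peaks. On unplaced sequences 403 of 1115 *primpol* peaks (36.1%, interval 33.4 to 39.0%) reached this value, against 132 of 47353 placed peaks (0.279%). In wild type 246 of 911 unplaced peaks (27.0%, interval 24.2 to 30.0%) did so, against 94 of 40534 placed peaks (0.232%). The ratio of the unplaced to the placed share was 130 in *primpol* (interval 108 to 156) and 116 in wild type (interval 92.7 to 146). Thus 75.3% of all *primpol* peaks past this value were unplaced, and 72.4% of those in wild type. They were on 355 sequences in *primpol* and 223 in wild type, so they did not come from a few pieces. The unplaced share moved with the threshold. From a −log10 q-value of 3 upwards it was 35.0% of 2034 *primpol* peaks and 33.2% of 1529 wild type peaks. At 10 or more it was 87.4% of 151 *primpol* peaks and 80% of 65 wild type peaks. The highest −log10 q-value of each list was at a placed peak, 37.2 in *primpol* and 45.7 in wild type. Unplaced peaks reached 31.5 in *primpol* and 16.4 in wild type.

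The higher enrichment was also seen within ranges of local background. Peaks were divided by relative lambda into those below 0.55, from 0.55 to 0.8, from 0.8 to 1.2, and of 1.2 or more. Below 0.55 were 735 of 1115 unplaced *primpol* peaks and 475 of 911 in wild type, beside 2179 and 1060 placed peaks. Chromosome Z had 2553 *primpol* and 1235 wild type peaks, with a median relative lambda of 0.494 and 0.522. Most placed peaks below 0.55 were therefore on chromosome Z, and the comparison in that range was mainly with this chromosome. The ratio of the unplaced to the placed median fold enrichment in these ranges was 1.40, 1.504, 1.26 and 1.33 in *primpol*, and 1.32, 1.39, 1.22 and 1.34 in wild type. The ratio of median heights was 1.35, 1.39, 1.22 and 1.39 in *primpol* and 1.34, 1.31, 1.16 and 1.44 in wild type. In the range around the list median, 0.8 to 1.2, 32.7% of 101 unplaced *primpol* peaks reached a −log10 q-value of 5, against 0.177% of 28206 placed peaks. In wild type the same range gave 23.6% of 123 unplaced peaks against 0.156% of 25078 placed peaks. Over all peaks, the ratio of medians was 1.62 in *primpol* and 1.53 in wild type.

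**Figure D4:**
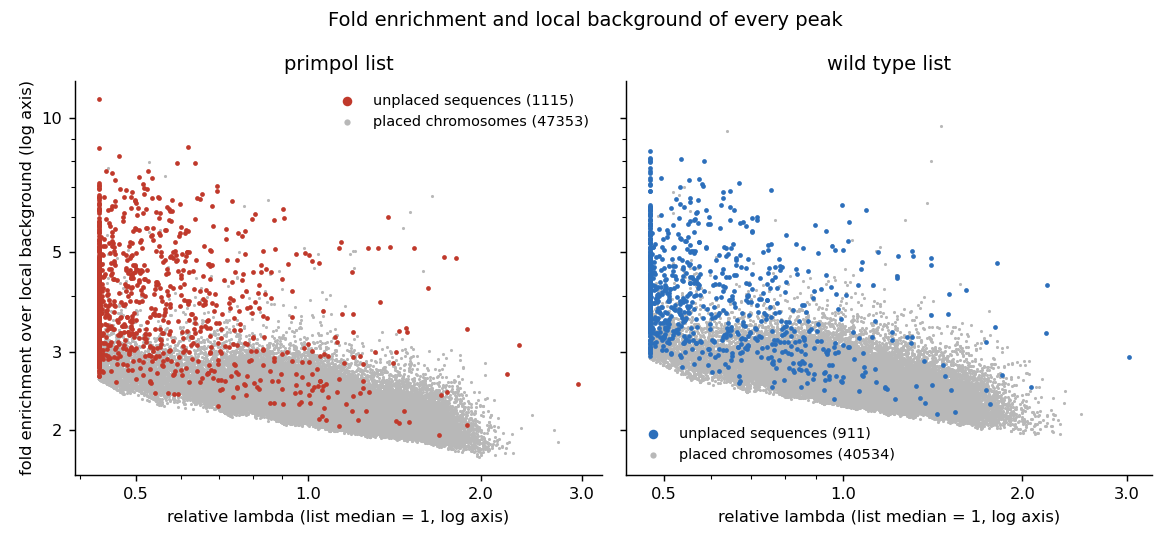
Fold enrichment over local background (vertical, log axis) against relative lambda, the local background divided by the list median (horizontal, log axis), for every peak of the *primpol* list (left) and the wild type list (right). Coloured points are the 1115 and 911 unplaced peaks of these lists and grey points the placed peaks. The coloured points gather at low relative lambda, with a column at its floor, and stand above most grey points at the same lambda.

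The unplaced peaks with the highest fold enrichment are given as a description. These peaks were chosen after their values were seen. In *primpol* the highest fold enrichment of the whole list, 11.04, was at 3215 to 3563 on AADN04016557.1, a 349 bp peak with a height of 43.5 and lambda at the floor. Its wild type partner at 3252 to 3510 had a fold enrichment of 7.14. In wild type the highest on an unplaced sequence was 8.45, at 1047 to 1347 on AADN04020387.1, again with lambda at the floor. It ranked 3 by fold enrichment in the whole list, where placed peaks reached 9.62. Its *primpol* partner had a fold enrichment of 6.32. Of the 10 highest fold enrichments, 8 were unplaced in *primpol* and 7 in wild type.

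The next comparison asked how many unplaced regions were called in both genotypes. Over the whole lists, 57.8% of *primpol* peaks and 69.7% of wild type peaks overlapped a peak of the other list by at least 1 bp. On unplaced sequences 726 of 1115 *primpol* peaks (65.1%, interval 62.3 to 67.9%) had such a partner, against 57.6% of placed peaks, a ratio of 1.13 (interval 1.08 to 1.18). Of the unplaced wild type peaks, 733 of 911 (80.5%, interval 77.8 to 82.9%) had a partner, against 69.4% of placed peaks, a ratio of 1.16 (interval 1.12 to 1.197). Against chromosomes 16 to 33 the ratio was 0.989 in *primpol* (interval 0.936 to 1.05) and 1.55 in wild type (interval 1.47 to 1.63). On chromosome Z 32.1% of *primpol* peaks and 71.2% of wild type peaks had a partner, below the unplaced share in both lists.

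**Figure D5:**
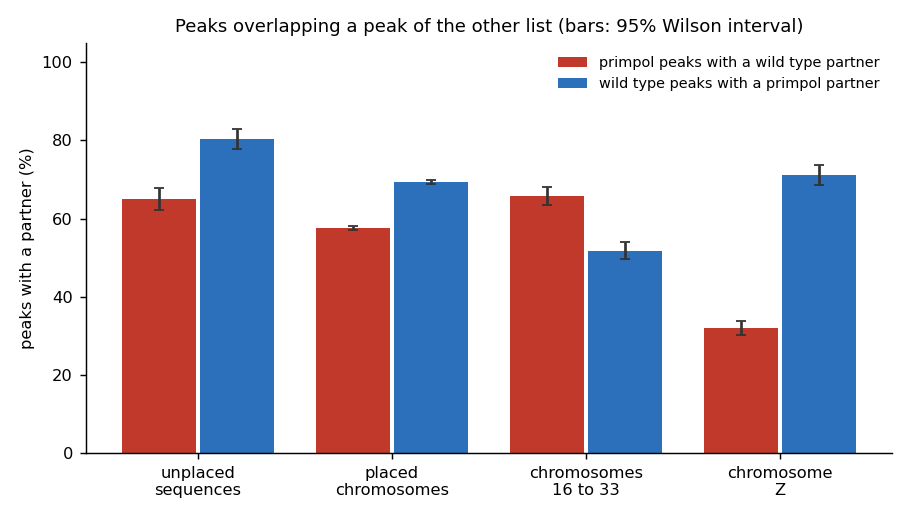
Share of peaks that overlap a peak of the other list by at least 1 bp (%, vertical axis), *primpol* left of wild type, on unplaced sequences, all placed chromosomes, chromosomes 16 to 33 and chromosome Z. Error bars are 95% Wilson intervals for counting error only. The unplaced bars, 65.1% in *primpol* and 80.5% in wild type, stand above those of all placed chromosomes. The bars of chromosomes 16 to 33 stand at 65.8% in *primpol* and 51.9% in wild type.

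The share with a partner was higher among high than among low peaks, on unplaced sequences and placed chromosomes alike. In the lowest of the 10 height groups 34.0% of unplaced *primpol* peaks and 62.3% of unplaced wild type peaks had a partner, against 28.9% and 53.8% of placed peaks in the same order of lists. In the highest group the unplaced shares were 95.3% in *primpol* and 97.3% in wild type, against 85.8% and 86.5% of placed peaks. Among the strongest peaks the share in *primpol* was lower on unplaced sequences than on placed chromosomes, and in wild type the intervals of both shares overlapped. Of the unplaced peaks whose −log10 q-value was 5 or more, 352 of 403 in *primpol* (87.3%, interval 83.7 to 90.2%) and 244 of 246 in wild type (99.2%, interval 97.1 to 99.8%) had a partner. Of the placed peaks past this value, 127 of 132 in *primpol* (96.2%, interval 91.4 to 98.4%) and 92 of 94 in wild type (97.9%, interval 92.6 to 99.4%) had one.

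Unplaced peaks without a partner numbered 389 of 1115 in *primpol* and 178 of 911 in wild type. The whole lists held 20467 of 48468 such peaks in *primpol* and 12564 of 41445 in wild type. Those on unplaced sequences were narrow, with a median width of 292 bp in *primpol*, against 676.5 bp for shared unplaced peaks, and 329.5 bp against 529 bp in wild type. They were also low, at a median height percentile of 9.05 in *primpol* and 17.3 in wild type, compared with 63.9 and 60.4 for shared unplaced peaks in the same order of lists. Placed peaks without a partner were also narrower and lower than shared placed peaks. Their median width was 550 against 1339 bp in *primpol* and 484 against 1090 bp in wild type. Their median height percentile was 33.5 against 61.7 in *primpol* and 37.3 against 55.2 in wild type. Most unplaced peaks without a partner were on sequences where the other list had no peak at all, 284 in *primpol* (73.0%) and 136 in wild type (76.4%). A peak of the other list lay within 1 kb of 24 of the *primpol* peaks and 6 of the wild type peaks. Among them, 51 *primpol* peaks and 2 wild type peaks reached a −log10 q-value of 5.

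By sequence, 555 of the 913 sequences had peaks in both lists, 238 in *primpol* alone and 120 in wild type alone. Thus 70.0% of the *primpol* sequences were also in the wild type list, and 82.2% of the wild type sequences were also in the *primpol* list. On the 555 sequences with peaks in both, the number of peaks was equal on 452, higher in *primpol* on 71 and higher in wild type on 32. More bases were covered in *primpol* on 419 of them (75.5%) and in wild type on 136. The whole *primpol* list was also the larger, with 48468 peaks over 65.4 Mb against 41445 peaks over 53.1 Mb in wild type.

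Few sequences held several peaks in 1 list and none in the other. There were 7 with at least 3 *primpol* peaks and no wild type peak, and 1 with at least 3 wild type peaks and no *primpol* peak. The linkage group LGE64 had the most, 5 *primpol* peaks between positions 204144 and 880947, with heights of 9.67 to 13.3 and fold enrichments of 2.65 to 3.23. AADN04006590.1 had 4 *primpol* peaks with heights of 9.95 to 12.1. AADN04001152.1 had 3 *primpol* peaks with heights of 13.5 to 20.02, and the fold enrichment there reached 5.22. The wild type sequence was AADN04005097.1, with 3 peaks of heights 12.2 to 16.5 and fold enrichments of 2.35 to 3.18. On the 3 named *primpol* sequences the median relative lambda was at the floor of 0.432, whereas it was 0.967 on the wild type sequence. The lowest height in the whole *primpol* list was 9.48, and all peaks on LGE64 and AADN04006590.1 were in the lowest of the 10 height groups.

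Peaks that matched 1 to 1 were compared over 696 unplaced and 21853 placed pairs. Their borders coincided closely on unplaced sequences. The starts of the *primpol* and the wild type peak differed by a median of 26 bp in unplaced pairs against 211 bp in placed pairs, and the ends by 40 bp against 207 bp. In 5 unplaced pairs both peaks began at the first base of the sequence. The *primpol* peak was the wider in 519 unplaced pairs (74.6%, interval 71.2 to 77.7%), against 59.6% of placed pairs. The Spearman correlation across pairs was 0.858 for height in unplaced and 0.776 in placed pairs. It was 0.754 against 0.536 for fold enrichment, and 0.818 against 0.634 for width. Pairs share the libraries and the depth of both lists and are not independent replicates, so these correlations are descriptions.

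The median ratio of heights within a pair, *primpol* over wild type, was 1.30 (interval 1.28 to 1.33) on unplaced sequences and 1.31 on placed chromosomes. Divided by the number of input tags, the ratio was 0.991 on unplaced sequences and 0.999 on placed chromosomes. The depth of the input library, which sets the scale of the heights, was 1.31 times as high in *primpol* as in wild type. The DRIP data were scaled to the input, so height per input tag is pileup relative to all DRIP tags of that list. A rise in *primpol* shared by the whole genome could not show in this ratio, and no interval was computed. The study scaled peak heights to spike-in reads and reported higher peaks in *primpol*. The spike-in reads were not used here.

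Fold enrichment within pairs differed between unplaced and placed peaks. Its median ratio, *primpol* over wild type, was 0.965 (interval 0.951 to 0.979) in unplaced pairs and 0.898 (interval 0.896 to 0.899) in placed pairs. The *primpol* peak had the higher fold enrichment in 290 unplaced pairs (41.7%, interval 38.1 to 45.4%), against 11.5% of placed pairs (interval 11.1 to 11.9%). Lambda was 1.37 times as high in *primpol* in unplaced pairs and 1.52 times in placed pairs, beside 1.34 times for the genome-wide floor. The share of unplaced pairs with the higher value in *primpol* was 60% in the 110 pairs where both peaks were at the floor, against 22.2% of 18 such placed pairs. It was 28.9% (interval 23.5 to 34.9%) in the 239 pairs with a relative lambda of at least 0.55 in both lists, against 11.2% of such placed pairs. The caller adds 1 to height and to lambda, which weighs more at low lambda. With no 1 added, the share was 32.0% (interval 28.7 to 35.6%) of unplaced pairs against 7.32% of placed pairs. The unplaced share thus exceeded the placed share on both scales.

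Single pairs also moved in rank. The *primpol* peak had the higher height percentile in 414 of the 696 unplaced pairs (59.5%, interval 55.8 to 63.1%), close to the 61.8% of placed pairs. The interquartile range of the difference was -6.22 to 9.37 points in unplaced and -5.55 to 15.03 points in placed pairs. The pairs with the largest differences are given as a description. They were taken from 467 unplaced pairs in which either peak exceeded the median height of its list, so a pair high in 1 genotype alone was kept. The largest difference upwards, 72.4 points, was on KQ759527.1, at 128640 to 129052 in *primpol* (height 24.1) and 128710 to 128922 in wild type (height 12.2). It was followed by 72.3 points on AADN04001075.1, at 28224 to 32773 in *primpol* (height 23.7) and 28407 to 32746 in wild type (height 12.1), and by 67.97 points at 47019 to 47295 on KQ759527.1. The percentile fell by 74.4 points on AADN04024620.1, at 582 to 1183 in *primpol* (height 15.3) and 762 to 1127 in wild type (height 19.8). It fell by 67.5 points on AADN04000662.1 and fell by 59.8 points on AADN04015955.1. With percentiles of fold enrichment, which lay above 98 in both lists for 4 of these 6 pairs, the last 2 pairs had the higher value in *primpol*, by 9.57 and 2.06 points.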

How the data were processed

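DRIP-seq libraries were trimmed by the authors with Trim Galore 0.4.4 and aligned with bowtie2 (2.2.6 in the submitters' processing notes) to the chicken genome Galgal5 and the *Drosophila* genome. Uniquely matching reads were kept and split by species. For each genotype, the authors called broad peaks against its own input with MACS2 2.1.1.20160309. Per the file headers, strong regions passed a q-value of 0.05 and weak regions one of 0.1, 1 duplicate was kept per position and the larger data set was scaled to the smaller. By the labels a list belongs to both DRIP replicates of its genotype, and how these were merged is not given in the sources used here.

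The signal deposited by the authors, called height here, is the mean fragment pileup of a peak, with no spike-in scale. Fold enrichment, as deposited, is a ratio, height plus 1 over lambda plus 1, and lambda was computed from both. This lambda is a single value per peak and may be approximate where the background varied within the peak. The −log10 q-value was deposited as a mean over the peak, and so was the −log10 p-value, which is used here only as a score. Positions are those deposited by the authors, counted from 1.

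Placed chromosomes were those named by a number, Z or W. Overlap was counted from 1 bp, with the same counts from bedtools 2.31.1. Shares were given Wilson intervals, their ratios log-scale intervals, and medians order statistic intervals. To scale the *primpol* list, height and lambda were multiplied by 0.763, a Poisson model gave the change in −log10 p-value, and peaks below the lowest wild type value were dropped. Functions were tested on simulated data. Python 3.11.15, numpy 2.4.6, pandas 2.3.3, scipy 1.17.1 and matplotlib 3.10.9 were used.

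Sequences, peaks and pairs were named by rule: the 10 sequences with most covered bases; per list, the 5 highest peaks, the 3 with highest relative lambda, the widest, and up to 3 sequences with at least 3 peaks and none in the other list; and the 3 pairs with the largest difference in height percentile in each direction. The members and lists were chosen with earlier results of these data known. No p-value was computed. The alternatives covered the threshold on peaks, the overlap rule, merging within 1 kb, the comparison chromosomes and leaving out sequences. The RNase H libraries, spike-in reads, and the sequence, genes and lengths of the unplaced pieces were not analysed here.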

Additional observations from a re-analysis of the deposited data

How the results depend on the processing

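No paired analysis was possible because the replicates of a genotype share 1 list, and none could be left out. The spread between replicates is unknown, and input depth sets how low a peak can be called. Ranking by share of sequence length and all comparisons of sequence content were not run. Alternatives for fold enrichment, for the strongest peaks and for pairs were chosen after seeing the data. Of 79 alternative values, 42 lay within the interval of the main value or, for counts, within 1.5 times of it, 35 moved outside and 2 reversed.

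Scaling to the wild type input depth, which left 29985 *primpol* peaks, gave a ratio of shares of 1.66. The 20000 highest −log10 q-values gave 1.21. A threshold of 5 on the −log10 q-value left 403 unplaced *primpol* and 246 wild type peaks, of which 55.3% and 91.9% had a partner past the same value. With overlap of at least 50% of both peaks, 54.8% of *primpol* and 67.1% of wild type peaks had a partner. The ratio of unplaced to placed median height, 0.934 in *primpol* and 0.996 in wild type, became 1.62 in *primpol* (reversed) and 1.53 in wild type with fold enrichment, and 2.40 (reversed) and 2.17 with −log10 q-values. Both of these set height against lambda. Against chromosomes 16 to 33 it was 0.907 and 0.936, and the ratio of lambda was 0.454 in *primpol* and 0.504 in wild type.

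The ratio of fold enrichment was 1.40, 1.504, 1.26 and 1.33 over the 4 ranges of relative lambda in *primpol* and 1.32, 1.39, 1.22 and 1.34 in wild type, 1.38 and 1.30 against chromosome Z, and 1.82 and 1.73 with no 1 added, in *primpol* and wild type. The unplaced share of the strongest peaks was 35.0% in *primpol* and 33.2% in wild type at −log10 q-values of at least 3, 87.4% and 80% at 10, and 56.2% and 43.5% in the first 1000 peaks. The share of unplaced pairs with higher fold enrichment in *primpol* was 28.9% at relative lambda of at least 0.55, 34.3% after scaling and 32.0% with no 1 added. Ranked by number of peaks, or by height times width, 7 of the 10 named sequences remained among the first 10. Where no construction is named, the cause was not tested.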

Other observations

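Some unplaced peaks without a partner were strong. These peaks were chosen after their values were seen. In *primpol* the 3 with the highest −log10 q-values were at 4703 to 4964 on AADN04005746.1 (−log10 q-value 13.3, height 27.0, fold enrichment 6.95), at 1176 to 1421 on AADN04020197.1 (13.3, 28.1 and 6.45 for the same values) and at 972 to 1286 on AADN04006102.1 (11.4, 24.3 and 6.29). In wild type the highest was at 299 to 505 on AADN04016440.1, with a −log10 q-value of 7.32, a height of 18.0 and a fold enrichment of 5.83. The next, at 6247 to 6569 on AADN04013231.1, had a −log10 q-value of 5.30 and a height of 31.6, in a background 1.80 times the list median. Among placed peaks without a partner, the highest −log10 q-value was 6.59 in *primpol* and 5.41 in wild type.

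Unplaced peaks at −log10 q-values of at least 5 were narrower and lower than the placed peaks past the same value. Their median width was 491 bp against 1251 bp in *primpol*, and 492 bp against 1131.5 bp in wild type. Their median height was 23.2 against 28.9 in *primpol*, and 19.6 against 24.2 in wild type. Their median fold enrichment was 4.90 against 3.69 in *primpol* and 5.26 against 4.06 in wild type, at a median relative lambda of 0.507 against 1.02 in *primpol* and 0.553 against 1.12 in wild type.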
